A study of Mus musculus with 4 samples.

Results

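C1q-high macrophages are liver cells defined by their own transcripts, and 158 were found among the 36286 cells kept from 4 single-cell RNA libraries. A cell was kept with 600 to 6000 features (genes with at least 1 transcript, counted as unique molecular identifiers, UMIs) and at most 5% mitochondrial UMIs. Its C1qa, C1qb and C1qc UMIs had to sum to at least 10 and its Csf1r UMIs to at least 1. It could hold no UMI of Negr1, Sox5, Itgad or Fcrl5, which mark another macrophage-like population of these livers. At most 1 UMI of Ace, Treml4 and Eno3, genes of patrolling monocytes, and none of the T-cell receptor chains Cd3d, Cd3e and Cd3g were allowed. The study asked how miR-146a and the chemokine Ccl5 bear on the immune cells of livers that form tumors. Live CD45+ leukocytes of female C57BL/6 mice were sorted from liver and measured on the 10x Genomics platform, with 1 library per group. The young group was untreated WT mice of about 8 weeks. The other groups were 36 weeks old and received the liver carcinogen diethylnitrosamine (DEN, 25 mg/kg on day 14 of life) and, from weaning on day 21, a choline-deficient diet with 60% fat (CDHFD). Their genotypes were WT, miR-146a-/- and miR-146a-/- Ccl5-/- (DKO, double knockout). DEN, diet and age differ together between the young and the treated WT group and cannot be told apart. Summed over all called cells, the libraries of young WT, treated WT, miR-146a-/- and DKO mice held 90756272, 103165826, 88706063 and 103147246 UMIs. Their C1q-high macrophages numbered 12, 67, 28 and 51 in that order and held 107992, 861712, 400012 and 834807 UMIs. With 1 library per group there is no spread between mice and no test, and every interval is a 95% interval, exact unless named otherwise, that covers counting error only.

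The most abundant genes of the cells included those of antigen presentation, iron storage and the cytoskeleton, which other leukocytes also express. Their level of a gene is its share of the cells' summed UMIs, in CPM. Pooled over the libraries, the gene with most UMIs was Cd74, the invariant chain of MHC class II, at 27140 CPM, and H2-Aa, a class II chain, stood at 10007 CPM. The ferritin subunits Ftl1 (11947 CPM) and Fth1 (9453 CPM), which store iron, were also among the 10 most abundant genes, as were the cytoskeletal Tmsb4x (14452 CPM) and Actb (11937 CPM). The remaining 4 were Gm42418, which ranked second at 21043 CPM, Cmss1, Cdk8 and the antibody segment Igkv6-32, whose 20586 UMIs sat in 1 DKO cell. Among the genes of the rule, C1qa stood at 1250 CPM in young WT, 1278 in treated WT, 1107 in miR-146a-/- and 1265 CPM in DKO macrophages. C1qb stood at 2880, 2567, 2265 and 2502 CPM, C1qc at 1519, 1166, 1037 and 1073 CPM, and Csf1r, the receptor that macrophages need to survive, at 880, 617, 732 and 658 CPM. These 4 genes chose the cells and their levels describe the choice.

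Clec4f, Vsig4, Timd4 and Marco, markers of Kupffer cells, the resident macrophages of the liver sinusoids, were near 0 in most of the cells. Other genes of the Kupffer list were not. The whole list of 26 genes summed to 1945 CPM in young WT, 1737 in treated WT, 1082 in miR-146a-/- and 1061 CPM in DKO macrophages. Id3 led it at 815, 895, 567 and 389 CPM. Clec4f, a lectin of Kupffer cells, stood at 27.8 CPM in young WT, 38.3 in treated WT, 0 in miR-146a-/- and 5.99 CPM in DKO macrophages. The complement receptor Vsig4 stood at 74.1, 6.96, 0 and 28.7 CPM, the phosphatidylserine receptor Timd4 at 9.26, 2.32, 5 and 22.8 CPM, and the scavenger receptor Marco at 0, 13.9, 0 and 4.79 CPM. At least 3 UMIs of Clec4f, Vsig4 and Timd4 together were found in 2 of 12 cells in young WT, 4 of 67 (5.97%, 1.65% to 14.6%) in treated WT and 4 of 51 (7.84%, 2.18% to 18.9%) in DKO mice. None of 28 miR-146a-/- cells reached it, where 3 cells would be 10.7% and the exact upper limit is 12.3%. Over all libraries these were 10 of 158 cells (6.33%, 3.08% to 11.3%). With a limit of at least 1 UMI they were 20 of 158 cells (12.7%, 7.91% to 18.9%), so few of the cells carried Clec4f, Vsig4 or Timd4. The monocyte receptor Ccr2 was present at 759, 384, 590 and 444 CPM, and CD11b, encoded by Itgam, at 92.6, 101, 92.5 and 114 CPM.

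C1q is the recognition molecule of the classical complement pathway, and macrophages, not hepatocytes, are its main source. In the liver, C1q-rich macrophages take up dead cells and lipoproteins, recycle iron from heme and present antigen, and they arise both from resident cells and from blood monocytes that settle in the tissue. miR-146a is a microRNA induced by NF-kB that lowers the adaptors Irak1 and Traf6, which carry signals of Toll-like receptors and of the interleukin 1 receptor.

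The mature sequence of the deleted microRNA and of its close relative miR-146b are shown because both carry the same seed, so a transcript with a seed match can be bound by miR-146b in every library. Capitals mark bases 2 to 8, the seed, in these RefSeq sequences (assembly GRCm38.p6). miR-146a-5p lies at chr11:43374435-43374456 on the minus strand and miR-146b-5p at chr19:46342790-46342811 on the plus strand.
mmu-miR-146a-5p: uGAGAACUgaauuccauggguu
mmu-miR-146b-5p: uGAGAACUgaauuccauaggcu
The DNA letters that pair with the seed are AGTTCTC, read on the strand of the transcript and on no other. Among 21037 genes with a 3′ UTR in the GENCODE M21 annotation, 2346 (11.2%) held this motif. The adaptors of the pathway were among them, Irak1 and Irak2 with 2 matches each and Traf6 with 4. A 30-base window around 1 match of each is shown with the match in capitals, at chrX:74015383-74015412 on the minus strand, chr6:113694121-113694150 on the plus strand and chr2:101697947-101697976 on the plus strand of GRCm38. A match is a description of the letters and no measure of binding.
Irak1: ctcagaggtcaaAGTTCTCatgcttggaag
Irak2: cccaaacctcttAGTTCTCcacaacggaca
Traf6: gctctggtgttgAGTTCTCatttagttgac

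Some cells stood apart from the rest. The deepest DKO cell held 55754 UMIs, 6.68% of all UMIs of the DKO macrophages, and carried antibody transcripts of a plasma cell, with 2839 UMIs of Jchain and 245 of Mzb1. The 12 genes of B and plasma cells summed to 176 CPM in young WT, 97.5 in treated WT, 107 in miR-146a-/- and 6998 CPM in DKO macrophages, and 98.5% of the DKO sum came from that cell. Without the deepest cell of each library, a choice made after seeing the data, the DKO sum was 113 CPM. Another DKO cell of 22148 UMIs held 204 UMIs of Prg4, 78 of Alox15, 78 of Cxcl13 and 42 of C4b, which made up all or nearly all UMIs of these genes in the 158 cells. The 14 genes of NK cells and ILC1 summed to 148, 1042, 805 and 1186 CPM. The granzyme Gzma, the gene of this list with most UMIs in the treated WT and DKO cells, had 264 UMIs in 4 treated WT cells and 204 UMIs in 4 DKO cells. The T-cell list of 18 genes summed to 491, 952, 1047 and 254 CPM, led by Skap1 in the young and DKO cells and by Ccl5 in the others. Between libraries, 745 cell barcodes were found in 2 or more, but no barcode was that of a C1q-high macrophage in more than 1 library, and 7 macrophage barcodes also named some other cell of another library.

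The condition on Cd3 removed more cells than it kept. Cells that met every other condition but held Cd3 UMIs numbered 53 in young WT, 197 in treated WT, 43 in miR-146a-/- and 45 in DKO livers, which is 81.5%, 74.6%, 60.6% and 46.9% of the C1q-high cells counted both ways. Their median Cd3 count of 18.0, 25.0, 19.0 and 19.0 UMIs lay below that of T cells (22, 26.0, 29.0 and 26.0), least so in treated WT mice. Their median depth of 12422, 14583, 11780 and 13133 UMIs was above that of T cells (7324, 7538, 7140 and 6650). Against the kept macrophages (8365, 11502, 13459 and 14006) it was higher in both WT libraries and lower in both knockout libraries. Whether such cells are pairs of a macrophage and a T cell was not tested, no doublet caller was run, and the kept cells with plasma-cell or NK transcripts stay in all sums unless said. At the lower edge of the C1q threshold, the 10 cells with 10 to 12 C1q UMIs had a median depth of 12294 UMIs, and the 12 cells just outside, with 8 to 9, had 15274 UMIs. Their median share of C1q was 0.0868% and 0.0554% of UMIs.

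C1q-high macrophages made up 0.117% (0.0603% to 0.204%) of kept cells in young WT, 0.804% (0.624% to 1.02%) in treated WT, 0.358% (0.238% to 0.517%) in miR-146a-/- and 0.518% (0.386% to 0.680%) in DKO livers. Under this rule the treated WT share was the highest and the young share the lowest, and the intervals of these 2 libraries did not overlap. The treated WT share lay 0.688 percentage points above the young share (0.496 to 0.909, Newcombe's interval). As the share of C1q-high macrophages, treated WT over young WT, percentage points, this was 2.54 without the Cd3 condition and 0.371 with no T, NK or B transcripts, so its sign held but its size did not. For miR-146a-/- less treated WT livers the difference was -0.447 points (-0.689 to -0.214). Under the same 2 settings its sign also held and its size did not. DKO livers stood 0.160 points above miR-146a-/- livers (-0.0415 to 0.356), which is within counting error under this rule. Without the condition on Negr1, Sox5, Itgad and Fcrl5 the value for the share of C1q-high macrophages, DKO over miR-146a-/-, percentage points, was 0.697 (0.427 to 0.969), so this result depends on that condition. The cells then numbered 15, 71, 40 and 119 in the 4 libraries, and the DKO share, not the treated WT share, was the highest. Of all kept cells with a Csf1r UMI, the macrophages were 1.68%, 3.68%, 1.30% and 1.47%.

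**Figure D1:**
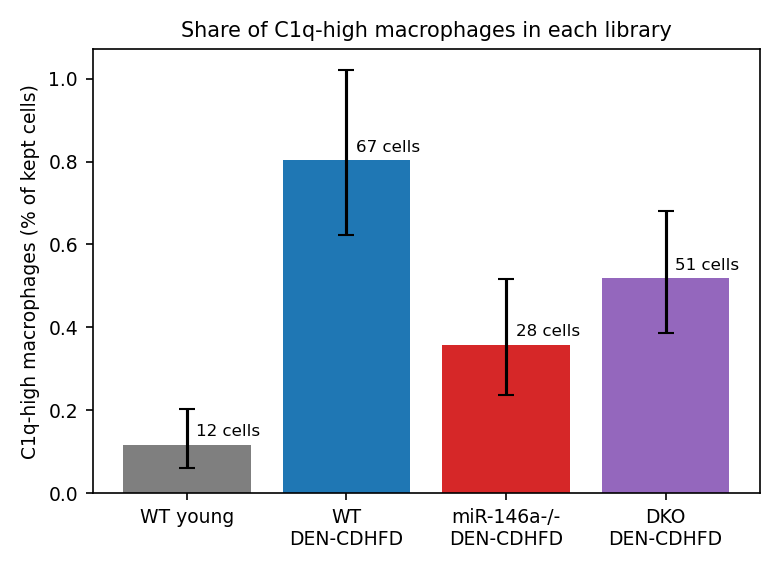
C1q-high macrophages as a percentage of the kept cells (vertical axis) in the 4 libraries (horizontal axis), with exact 95% binomial intervals as bars. Under the rule used, with its condition on Negr1, Sox5, Itgad and Fcrl5, the treated WT library stands highest at 0.804% and the young WT library lowest at 0.117%.

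The cells differed among themselves in MHC class II, which displays antigen to CD4 T cells. The 12 genes of this list took a median of 6.09% of a cell's UMIs in young WT, 5.10% in treated WT, 7.16% in miR-146a-/- and 6.96% in DKO macrophages, and single cells ranged from 0.0181% to 18.0%. Cells under 2%, a limit chosen after the values were seen, numbered 2 of 12, 17 of 67 (25.4%, 15.5% to 37.5%), 5 of 28 (17.9%, 6.06% to 36.9%) and 12 of 51 (23.5%, 12.8% to 37.5%). Pooled, their median depth was 12794 against 12740 UMIs in the rest and their median C1q count 21.5 against 49.5. By library the depths were 14672 against 7665 in young WT, 8286 against 12438 in treated WT, 15655 against 12832 in miR-146a-/- and 16778 against 14006 UMIs in DKO mice. The C1q count, on which the rule chose the cells, was lower in the class II-low cells of every library but the young one (118 against 33.0). Some genes of monocytes were higher in them and others were not. Ly6c2, a surface marker of classical monocytes, stood at 1047 against 187 CPM, with 237 of the 499 UMIs in the plasma-like DKO cell, and Chil3, a lectin of inflammatory monocytes, at 258 against 71.8 CPM. Haptoglobin (Hp) stood at 474 against 98.4 CPM. Ccr2 was similar at 436 against 470 CPM, and S100a9 was found only in the rest, at 56.7 CPM from 98 UMIs in 6 cells. In DKO macrophages 1 cell held 87.6% of the UMIs of the neutrophil list, which includes S100a9. The class II-low cells also held most of the lymphocyte transcripts, with 3853 against 226 CPM of the NK and ILC1 list and 2243 against 252 CPM of the T-cell list, and the plasma-like DKO cell was among them. Their levels of Il1b, which encodes interleukin 1 beta (107 against 579 CPM), of the transcription regulator Id3 (258 against 745 CPM) and of the lipid droplet coat Plin2 (235 against 523 CPM) were lower. Some results below are also given without these cells, but the class II levels below count them.

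**Figure D2:**
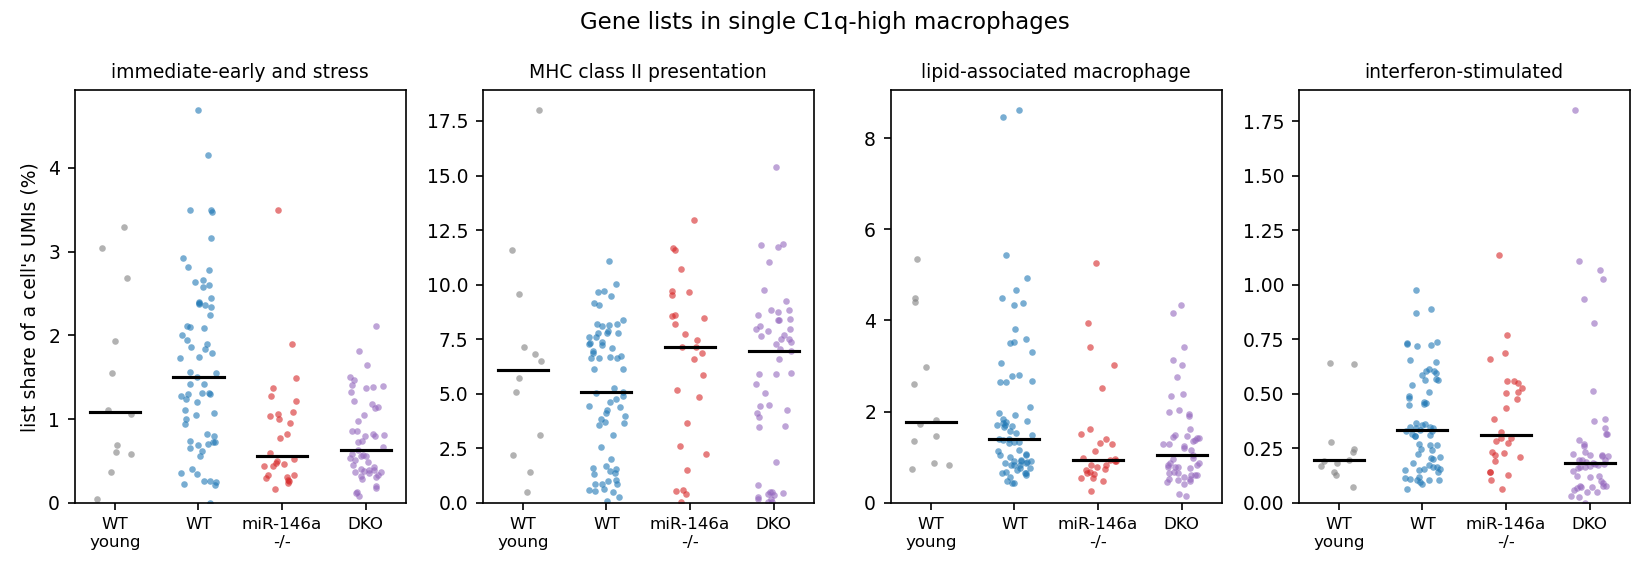
Each point is 1 C1q-high macrophage, placed by the percentage of its UMIs that 4 gene lists take (vertical axes) in each library (horizontal axis), and the black line is the median. Class II medians lie between 5.10% and 7.16% with a tail of cells near 0, and immediate-early medians are 1.08% and 1.5% in the WT libraries against 0.562% and 0.634% in the knockout libraries.

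Compared with monocytes of the same libraries, the macrophages differed in both directions. Classical monocytes (77 cells in treated WT and 117 in DKO livers) and patrolling monocytes (265 and 1262) are the kinds of cells compared, in the libraries with at least 50 macrophages. Of 3139 genes compared with classical monocytes, 47 (1.5%) were over 2-fold higher and 39 (1.24%) over 2-fold lower in the macrophages of both libraries. Against patrolling monocytes the counts were 67 (2.11%) and 112 (3.53%) of 3176 genes. Outside the C1q genes, which the rule used, the largest differences that favored the macrophages over both kinds of monocyte included Itga9, an integrin chain, at 80.1 CPM in treated WT and 69.5 CPM in DKO macrophages. In classical monocytes Itga9 stood at 4.55 and 0.927 CPM, and in patrolling monocytes at 10.8 and 3.63 CPM. Mertk, a receptor for the uptake of dying cells, stood at 84.7 and 56.3 CPM in the macrophages, at 9.10 and 4.63 CPM in classical and at 7.04 and 3 CPM in patrolling monocytes. Cd63, a protein of late endosomes, stood at 493 and 240 CPM in the macrophages, at 49.2 and 6.02 CPM in classical and at 65.3 and 17.6 CPM in patrolling monocytes. Ms4a7, C3ar1 (the receptor for complement C3a) and Cd5l (a secreted scavenger protein) were the other genes among the 10 largest in both comparisons. Lower in the macrophages than in classical monocytes were S100a9, a calcium-binding alarmin (1.16 and 113 against 52.8 and 811 CPM), and Chil3 (97.5 and 87.4 against 464 and 724 CPM). The cells that carried Negr1-set genes reached 50 cells in the DKO library alone, where 209 of 3730 genes (5.60%) were over 2-fold higher and 524 (14.0%) over 2-fold lower in the C1q-high macrophages. Of the class II list, the C1q-high macrophages held 55825 CPM and those cells 14163 CPM in DKO mice. In young WT, treated WT and miR-146a-/- mice the few such cells (4, 6 and 20) held 51496, 51982 and 55602 CPM, near the macrophage level.

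The first comparison asks what carcinogen, diet and age together go along with in WT macrophages. The median ratio of NF-kB genes lay above that of all genes in treated over young WT macrophages, but their summed level was similar. The interferon-stimulated and monocyte lists gave differences whose sign depends on the settings. Isg15, an antiviral ubiquitin-like protein, stood at 74.1 CPM in young WT, 396 in treated WT, 257 in miR-146a-/- and 111 CPM in DKO macrophages, and Lyz2, lysozyme, at 15686, 7472, 8380 and 8713 CPM. The young library, with 12 cells, sets the precision here, since 3 of its counts are 27.8 CPM. A ratio between libraries is given on the log2 scale, with 0.5 counts added, and is read only if either library of the pair reaches 50 CPM on 20 UMIs or more, and 2-fold is used as a size.

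Of the 3078 genes at this minimum, 270 (8.77%) were past 2-fold higher and 68 (2.21%) past 2-fold lower in treated WT macrophages, with a median log2 ratio of 0.07. This excess of higher genes depends on the minimum, which a gene at a few counts in the thin young library can pass through the treated library, and with the minimum set on the mean of both libraries 137 were higher and 176 lower. The NF-kB and inflammatory list had 11 of 25 members higher (44.0%) and 1 lower, with a median of 0.74, which was 0.59 with the minimum on the mean of both libraries (all genes -0.04) and 0.08 with a prior of 5 counts (all genes -0.34). How many members are higher under the minimum on the mean was not tested. The summed list stood at 4037 and 4568 CPM, and its median share of a cell's UMIs was 0.393% in young and 0.302% in treated WT macrophages. Nfkbia, the inhibitor that NF-kB itself induces, stood at 194 CPM in young and 547 CPM in treated WT macrophages (log2 ratio 1.46, 0.86 to 2.20). Il1b went the other way, at 1435 and 490 CPM (-1.55, -1.82 to -1.28), though the young value rests on 6 cells. Of the interferon list, 7 of 24 members were higher (29.2%) and 1 lower, with a median of 0.54. Isg15 had a log2 ratio of 2.33 (1.42 to 3.64). The young value of Isg15 rests on 8 UMIs, and the median of the interferon list was -0.12 once cells with Cd3 UMIs were let in, so its sign depends on that choice. With a prior of 5 counts it was -0.08, but the median of all genes was then -0.34.

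The monocyte list had 1 of 15 members higher and 3 lower (20%), against 8.77% and 2.21% of all genes, with a median of -0.66. The log2 ratio was -1.07 (-1.15 to -0.99) for Lyz2, and Ly6c2 stood at 963 and 339 CPM (-1.51, -1.83 to -1.17), with 77.9% of the young Ly6c2 UMIs in 1 cell. Without the class II-low cells the list's median was 0.26, and it also turned in sign once cells with Cd3 UMIs were let in. The sign of the median thus depends on which cells are counted. The summed list stood at 21502 CPM in young and 11975 CPM in treated WT macrophages, and its level without the class II-low cells was not tested. Cd14, the co-receptor for bacterial lipopolysaccharide, stood at 620 and 261 CPM (-1.26, -1.65 to -0.83). The transcription factor Maf stood at 204 and 68.5 CPM (-1.59, -2.30 to -0.80), and Hpgd, which degrades prostaglandins, at 278 and 82.4 CPM (-1.77, -2.39 to -1.09). Higher in treated WT macrophages were Plin2, at 250 and 614 CPM (1.27, 0.74 to 1.91), lipoprotein lipase (Lpl), at 92.6 and 277 CPM (1.52, 0.68 to 2.66), and the heat shock gene Hspa1a, at 74.1 and 523 CPM (2.73, 1.83 to 4.04). Several of the largest differences concern genes with no UMI in the young cells, for which a bound against 3 counts is given. Lacc1, a metabolic regulator of macrophage inflammation, had 58 UMIs in 33 treated WT cells and was at least 2.42-fold higher. Ccng1, a cyclin induced by p53, had 56 UMIs in 31 cells and was at least 2.34-fold higher. Cxcl2, a chemokine for neutrophils, was at least 11.2-fold higher, but 53.2% of its UMIs came from 1 cell.

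The lipid-associated macrophage list holds genes that macrophages express around fat-laden or dying cells. It had 5 of 19 members higher (26.3%) and 1 lower in treated WT macrophages, against 8.77% and 2.21% of all genes. Its median was 0.15, and here too the count under the other minimum was not tested. Its summed level was lower, at 23057 and 18799 CPM, and so was its median share of a cell's UMIs, at 1.78% and 1.40%. Apoe, the lipoprotein of macrophage lipid export, stood at 9223 CPM in young and 4654 CPM in treated WT macrophages (-0.99, -1.09 to -0.89). Spp1, which encodes osteopontin, stood at 519 and 165 CPM, with 66.1% of the young UMIs in 1 cell.

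The comparison of miR-146a-/- with WT, both treated, asks what the loss of the microRNA goes along with, and it shares the treated WT library with the comparison before. Hmox1 and genes of lipid-associated macrophages and of the immediate-early response were lower in miR-146a-/- macrophages, while class II genes were slightly higher. Hmox1 (ENSMUSG00000005413), the enzyme that opens the heme ring, stood at 167 CPM in young WT, 386 in treated WT, 70.0 in miR-146a-/- and 111 CPM in DKO macrophages. Apoe stood at 9223, 4654, 1847 and 2623 CPM, and Fos, a transcription factor induced within minutes of a stimulus, at 2472, 2598, 915 and 1012 CPM. For Apoe and Fos both knockout libraries lie below both WT libraries, and for Hmox1 the treated WT library stands highest. The plot of CPM by library shows these and 9 other genes.

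**Figure D3:**
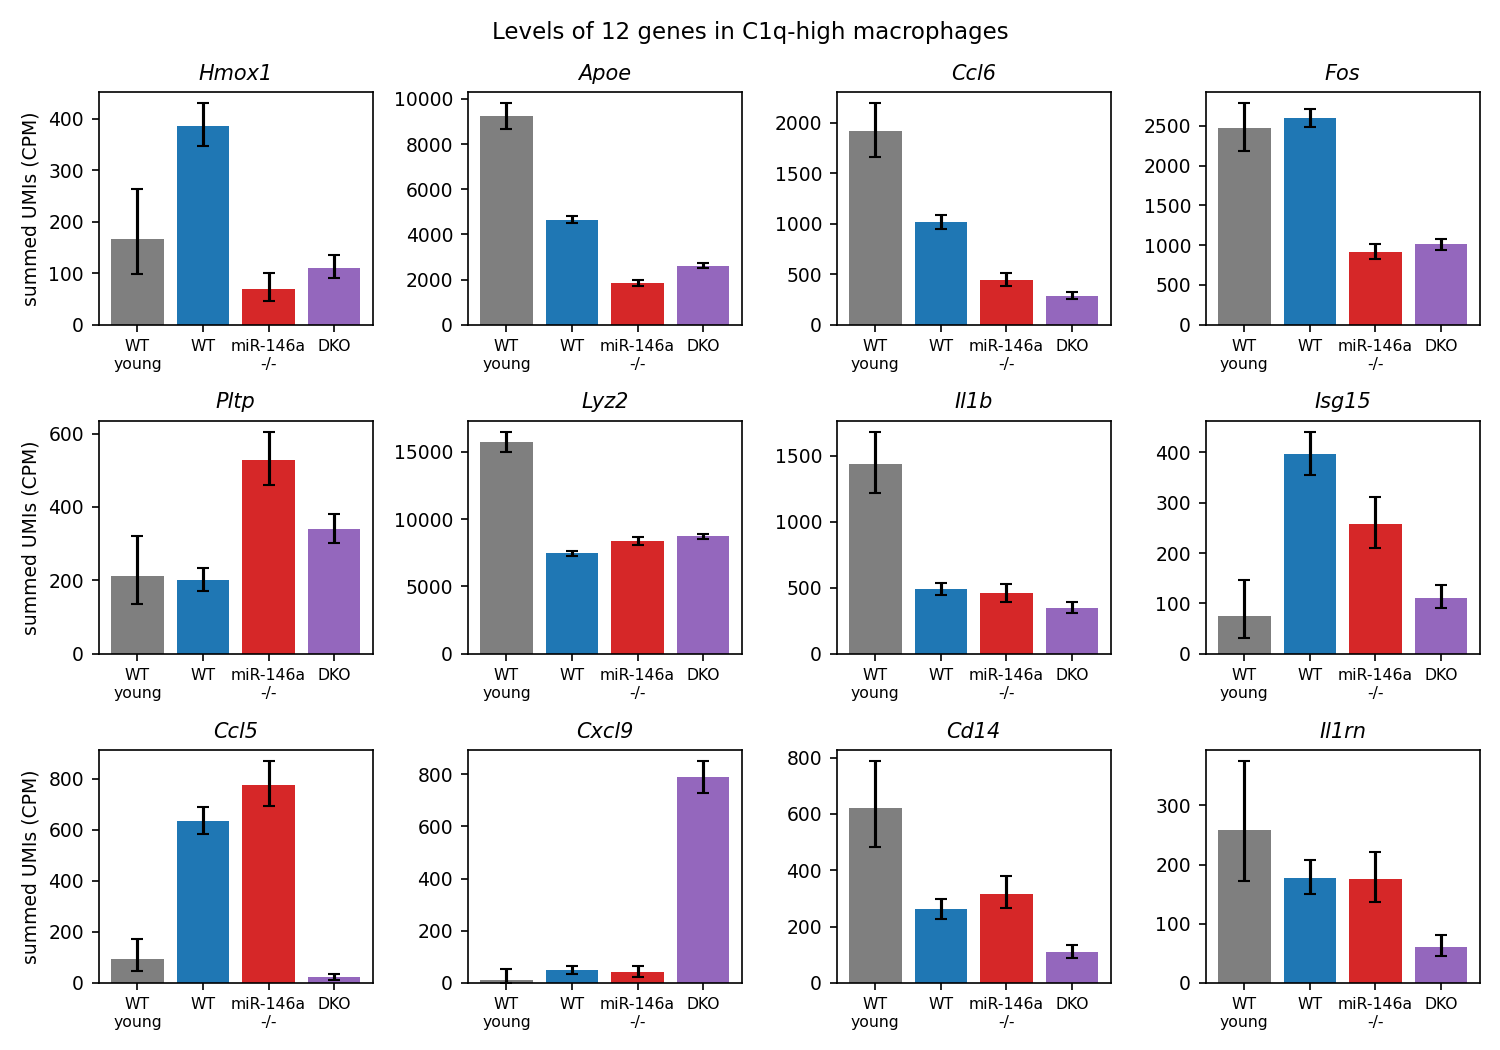
Levels of 12 genes in C1q-high macrophages, in CPM (vertical axes, each from 0) for the 4 libraries (horizontal axes), with exact 95% Poisson intervals of the summed UMIs as bars. Hmox1 is highest in treated WT at 386 CPM, Apoe is highest in young WT at 9223 CPM, and Cxcl9 reaches 788 CPM in DKO macrophages.

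Of 3374 genes at the minimum, 66 (1.96%) were past 2-fold higher and 148 (4.39%) past 2-fold lower in miR-146a-/- macrophages, with a median log2 ratio of -0.03. Hmox1 had a log2 ratio of -2.44 (-3.08 to -1.91), from 333 UMIs in 43 treated WT cells and 28 UMIs in 14 miR-146a-/- cells. After each cell was thinned to 3000 UMIs, 38.1% of treated WT cells (24 of 63) and 14.8% of miR-146a-/- cells (4 of 27) held an Hmox1 UMI, against 1.38% and 1.02% of B cells, which should lack it. Without thinning the shares were 64.2% and 50%, against 3.26% and 3.21% of B cells, at median depths of 11502 and 13459 UMIs in macrophages and 6988 and 7381 UMIs in B cells. Patrolling monocytes held 325 and 277 CPM of Hmox1 and classical monocytes 80.1 and 97.5 CPM, so a difference of this size was not seen in them. In the C1q-high cells with Cd3 UMIs Hmox1 stood at 206 and 55.6 CPM. Without the class II-low cells it stood at 391 and 69.1 CPM, and among cells with no T, NK or B transcripts at 344 and 85.2 CPM. The other iron genes differed less. Ftl1 stood at 14916 and 10000 CPM (-0.58, -0.63 to -0.53), and of the 9 members of the iron and heme list at the minimum 1 was higher and 1 lower, with a median of -0.48.

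The lipid-associated macrophage list had 1 of 19 members past 2-fold higher (5.26%) and 5 lower (26.3%), against 1.96% and 4.39% of all genes. Its median was -0.39, and 17 of the 19 had a ratio under 0. Apoe had a log2 ratio of -1.33 (-1.45 to -1.22). Other cells gave 889 and 373 CPM of Apoe in classical monocytes, 916 and 575 CPM in patrolling monocytes and 616 and 377 CPM in B cells, in which most of it can come from free RNA. In the C1q-high cells with Cd3 UMIs Apoe stood at 4551 and 3980 CPM, a smaller difference than in the cells without them, and the cause was not tested. Trem2, a lipid receptor of macrophages chosen after its values were seen, stood at 241, 179, 85.0 and 150 CPM over the 4 libraries (-1.06, -1.65 to -0.53, for miR-146a-/- over WT). After thinning, 28.6% of treated WT and 7.41% of miR-146a-/- cells held a Trem2 UMI, against 0.153% and 0.407% of B cells. Without thinning the shares were 50.7% and 21.4%, against 0.444% and 1.00%. Cd63 stood at 493 and 275 CPM (-0.84, -1.16 to -0.54) and Plin2 at 614 and 377 CPM (-0.70, -0.97 to -0.44). Spp1 was the member past 2-fold higher, at 165 and 802 CPM, but 94.1% of its miR-146a-/- UMIs came from 1 cell, and in cells with at least 2% class II UMIs it stood at 122 and 47.1 CPM. The summed level of the list was 23057, 18799, 13737 and 12049 CPM over the libraries. In the same order it was 5408, 7617, 7859 and 8699 CPM in classical monocytes, which did not share the lower level of the knockout libraries. Patrolling monocytes held 5636, 9115, 8256 and 8996 CPM. The C1q-high cells with Cd3 UMIs held 10937, 12141, 9556 and 12139 CPM, so their DKO level was near that of treated WT.

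Immediate-early and stress genes, induced within minutes by signals, heat or tissue handling, had 11 of 28 members past 2-fold lower (39.3%) and none higher. Of all genes 4.39% were lower and 1.96% higher. The list's median was -0.78, and 27 of the 28 had a ratio under 0. Fos had a log2 ratio of -1.50 (-1.67 to -1.35). Zfp36, which destabilizes cytokine transcripts, stood at 2360 and 1165 CPM (-1.02, -1.17 to -0.87), and Klf2, a transcription factor that restrains inflammation, at 573 and 190 CPM (-1.59, -1.96 to -1.24). Other cells of these libraries shared the difference. The summed list stood at 15881 CPM in young WT, 17049 in treated WT, 9007 in miR-146a-/- and 8319 CPM in DKO macrophages. It stood at 18456 and 10016 CPM in treated WT and miR-146a-/- classical monocytes, at 17860 and 9091 CPM in patrolling monocytes, at 12734 and 8091 CPM in B cells and at 12296 and 7176 CPM in T cells. Both knockout libraries were lower than both WT libraries in each of these 5 kinds of cells, and the part of genotype, of how each liver was handled and of the library cannot be told apart.

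**Figure D4:**
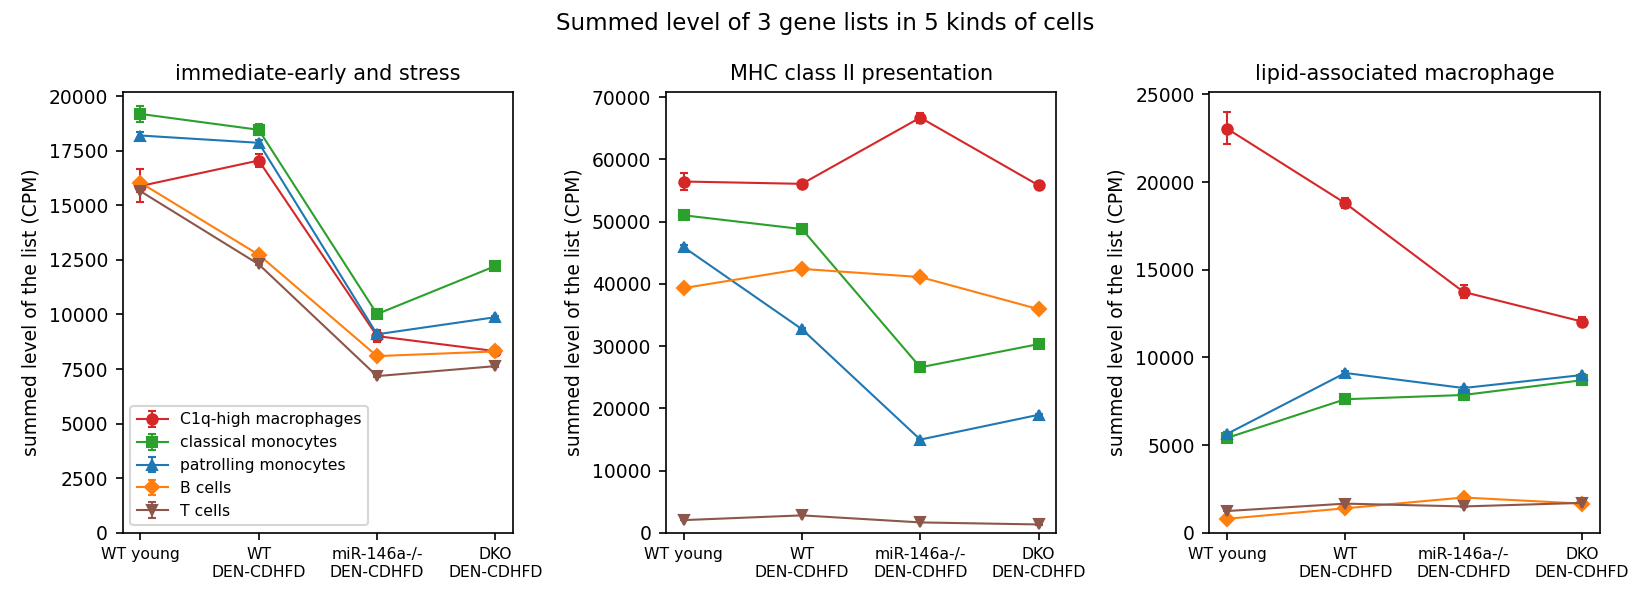
Summed level of 3 gene lists in CPM (vertical axes) in the 4 libraries (horizontal axes) for 5 kinds of cells, each joined by a line, with exact 95% Poisson intervals as bars. Immediate-early genes are lower in the knockout libraries in every kind of cell drawn, while class II in miR-146a-/- libraries is 66708 CPM in the macrophages and 26586 and 14973 CPM in classical and patrolling monocytes.

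MHC class II went the other way, and here the macrophages differed from monocytes. Of 10 members at the minimum, 9 had a ratio above 0 in miR-146a-/- macrophages, none was past 2-fold, and the median was 0.24. H2-Eb1, a class II chain, stood at 7851 and 10512 CPM (0.42, 0.37 to 0.48), and Ciita, the master regulator of class II genes, at 111, 152, 245 and 162 CPM over the 4 libraries (0.69, 0.30 to 1.08). The summed list stood at 56439, 56065, 66708 and 55825 CPM in macrophages. In classical monocytes it stood at 51012, 48794, 26586 and 30311 CPM and in patrolling monocytes at 45895, 32706, 14973 and 18951 CPM, lower in both knockout libraries than in both WT libraries.

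The genes with the largest lower ratios in miR-146a-/- macrophages were each in few cells or in 1 cell, with exceptions. Pdlim4, a protein of the actin cytoskeleton, was found in 5 young WT, 29 treated WT, 1 miR-146a-/- and 4 DKO cells, at 55.6, 55.7, 2.50 and 4.79 CPM, with 1 UMI behind the miR-146a-/- value (log2 ratio -3.91, -9.81 to -1.93). Tent5c, a poly(A) polymerase, was found in 30 treated WT and 5 miR-146a-/- cells, at 120 and 15.0 CPM (-2.89, -4.47 to -1.82). Gdf15, a stress-induced hormone, had 80 UMIs in 11 treated WT cells and none in miR-146a-/- cells, at least 12.4-fold lower. Cd5l stood at 74.1, 80.1, 2.50 and 59.9 CPM, with 1 UMI in the miR-146a-/- cells (-4.43, -10.33 to -2.48). Of the treated WT UMIs of Cd5l 40.6% came from 1 cell, and the cells past the Kupffer limit, of which miR-146a-/- mice had none, held 563 against 22.8 CPM in the others. Gzma, Ube2c, Mmp12 and Fabp4 also ranked there, and 36.4%, 97.0%, 84.5% and 73.8% of their treated WT UMIs came from 1 cell. Of the Kupffer list, 3 of 6 members at the minimum were past 2-fold lower, against 4.39% of all genes, with a median of -0.84. Adgre1, which encodes F4/80, stood at 194, 120, 57.5 and 132 CPM (-1.03, -1.78 to -0.39). The chemokine Ccl6 stood at 1917, 1019, 445 and 286 CPM (-1.19, -1.44 to -0.96), lower in each library than in the one named before it.

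Higher in miR-146a-/- macrophages was Pltp, the phospholipid transfer protein that remodels lipoproteins, at 213, 201, 527 and 339 CPM over the 4 libraries. Its log2 ratio was 1.39 (1.1 to 1.69), with UMIs in 39 of 67 treated WT and 22 of 28 miR-146a-/- cells, and both knockout libraries were above both WT libraries. Clec10a, a lectin for galactose-bearing glycans, stood at 37.0, 9.28, 70.0 and 28.7 CPM (2.85, 1.74 to 4.26), from 8 and 28 UMIs. Ccnd2, a cyclin, stood at 74.1, 25.5, 100 and 70.7 CPM (1.96, 1.18 to 2.79). Glycolysis genes were higher by less than 2-fold, with 11 of 15 ratios above 0 and a median of 0.24. The summed list was also higher in miR-146a-/- than in treated WT classical monocytes (7736 against 5187 CPM), patrolling monocytes (6568 against 5388 CPM) and T cells (5112 against 4449 CPM). Gapdh, an enzyme of the pathway, stood at 1387 and 1830 CPM (0.40, 0.27 to 0.53).

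The genes of the miR-146a pathway showed no common direction in macrophages without the microRNA. Of 9 members of the target list at the minimum, 3 had a ratio above 0 and 6 under 0, none was past 2-fold higher and 1 was lower, with a median of -0.08. The largest ratio was that of Numb, an adaptor that restrains Notch signals, at 64.8, 40.6, 72.5 and 44.3 CPM over the 4 libraries (0.84, 0.07 to 1.59). Irak2, which holds the match printed above, stood at 64.8 CPM in young WT, 174 in treated WT, 80.0 in miR-146a-/- and 89.8 CPM in DKO macrophages (-1.10, -1.72 to -0.56). The canonical targets were named after their values were seen. Irak1 stood at 37.0, 56.9, 55.0 and 70.7 CPM (-0.03, -0.84 to 0.70) and Traf6 at 37.0, 34.8, 25.0 and 28.7 CPM, under the minimum. Among all genes, 387 with a seed match in the 3′ UTR had a median log2 ratio of -0.01, with 5 past 2-fold higher (1.29%) and 18 lower (4.65%). The 2933 genes without a match had a median of -0.03, with 59 higher (2.01%) and 129 lower (4.40%). The 43 genes with at least 2 matches had a median of -0.11, with none past 2-fold higher. A shift of transcripts with the seed match was not detectable at this depth. The NF-kB list had no member past 2-fold higher and 3 of 26 lower (11.5%), with a median of -0.20. The interferon list had 1 of 28 higher and none lower, with a median of -0.01. Of all genes 1.96% were higher and 4.39% lower.

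The comparison of DKO with miR-146a-/- macrophages asks what the further loss of Ccl5 goes along with. It shares the miR-146a-/- library with the comparison before, so a value that is extreme in that library enters both. Chemokines and interferon-stimulated genes differed in both directions, with Ccl3, Ccl4 and Isg15 lower in DKO macrophages and Cxcl9 higher in a few cells. The summed class II level was lower than in miR-146a-/- macrophages, while the median share per cell was similar. Ccl3, a chemokine for monocytes and T cells, stood at 157 CPM in young WT, 198 in treated WT, 162 in miR-146a-/- and 22.8 CPM in DKO macrophages, and Il1rn, the antagonist of the interleukin 1 receptor, at 259, 178, 175 and 61.1 CPM. For both the DKO library was the lowest.

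Of 3303 genes at the minimum, 82 (2.48%) were past 2-fold higher and 78 (2.36%) past 2-fold lower in DKO macrophages, with a median of -0.03. Of 10 chemokine genes at the minimum, 3 were higher (30.0%) and 4 lower (40.0%), with a median of -0.45, and the deleted Ccl5 is among the 4. Ccl3 had a log2 ratio of -2.81 (-3.66 to -2.08), from 65 UMIs in 9 and 19 UMIs in 9 cells, and 38.5% of its miR-146a-/- UMIs came from 1 cell. Ccl4, its close relative, stood at 519, 436, 207 and 67.1 CPM (-1.62, -2.14 to -1.12). Why Ccl3 and Ccl4 were lower was not tested. Cxcl2 stood at 392 and 14.4 CPM, but 82.2% of its miR-146a-/- UMIs came from 1 cell. Il1rn had a log2 ratio of -1.51 (-2.07 to -0.98), and Cd14, at 317 and 110 CPM, -1.52 (-1.93 to -1.13). Fabp5, a fatty acid carrier, stood at 1417, 854, 650 and 262 CPM (-1.31, -1.57 to -1.04). The tetraspanin Cd9 stood at 250, 320, 212 and 103 CPM (-1.04, -1.49 to -0.59).

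The interferon list had 3 of 27 members higher (11.1%) and 3 lower (11.1%), against 2.48% and 2.36% of all genes. Its median was -0.42, and 22 of the 27 had a ratio under 0, while the summed list stood at 3590 and 3614 CPM. Cxcl9 made up 21.8% of the DKO sum, at 788 CPM against 40.0 CPM in miR-146a-/- macrophages. The list's median share of a cell's UMIs was 0.312% in miR-146a-/- and 0.184% in DKO macrophages. Isg15 had a log2 ratio of -1.21 (-1.63 to -0.79), from 257 and 111 CPM. Irf7, a transcription factor that amplifies interferon, stood at 213, 208, 205 and 117 CPM (-0.81, -1.24 to -0.36). Cxcl9 (ENSMUSG00000029417), a chemokine induced by interferon gamma that draws T cells, stood at 9.26, 48.7, 40.0 and 788 CPM (4.26, 3.59 to 5.12). Its DKO UMIs came from 12 of 51 cells, and 3 cells held 224, 158 and 145 of the 658 UMIs. Each of these 3 was among the 4 DKO cells past the Kupffer limit, through Timd4 or Vsig4, and 1 of them also held 839 UMIs of Cst3 and 22 of Clec9a, genes of type 1 dendritic cells that were named after their values were seen. The other 7 cells past the Kupffer limit held 1 UMI of Cxcl9 in all, so it is no trait of these cells as a whole. In the C1q-high cells with Cd3 UMIs the direction was the other, with Cxcl9 at 30.2 CPM without miR-146a alone and 11 CPM without both genes, and Isg15 was nearly equal at 213 and 206 CPM. B cells held 1.31 to 23.5 CPM of Cxcl9 in the 4 libraries. Among cells with no T, NK or B transcripts it stood at 11.5, 34.0, 46.5 and 260 CPM. Gbp2, a GTPase induced by interferon gamma, stood at 74.1, 118, 132 and 343 CPM (1.36, 0.94 to 1.82), and the cells past the Kupffer limit held 164 of its UMIs and the others 285 (1140 against 138 CPM). Most UMIs of the cells past this limit lie in the 4 DKO cells, so the split is not independent of the DKO ratio.

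Class II genes were lower in DKO than in miR-146a-/- macrophages, with all 10 ratios under 0, none past 2-fold and a median of -0.35. H2-Eb1 stood at 10512 and 8001 CPM (-0.39, -0.45 to -0.34). Once cells with Cd3 UMIs were let in the median was -0.06, and in those cells alone the summed list stood at 30771, 25046, 35132 and 39051 CPM over the 4 libraries, highest in DKO mice. Glycolysis had 12 of 13 ratios under 0 and a median of -0.35. Complement genes, a list that includes the C1q genes that chose the cells, had 2 of 13 members past 2-fold higher (15.4%) and none lower. Of all genes 2.48% were higher and 2.36% lower. The list's median was 0.19, and C4b, of which 1 DKO cell held all 42 UMIs, was among the 2. Component C3 stood at 148, 103, 117 and 237 CPM (1.00, 0.55 to 1.5) and properdin (Cfp), which stabilizes the alternative pathway, at 194, 145, 145 and 276 CPM (0.92, 0.51 to 1.37). Over all libraries C3 stood at 508 CPM in the 10 cells past the Kupffer limit and 134 CPM in the others, and Cfp at 661 and 165 CPM. The DKO library has 4 of these cells and the miR-146a-/- library none. The 4 DKO cells held 34079, 31845, 28698 and 22148 UMIs, and the deepest of the others 8286. This split thus rests largely on UMIs that also enter the DKO ratio and shows no trait of such cells in other libraries. Their part in the difference was not tested. The inhibitory lectin Clec12a, at 194, 191, 60.0 and 199 CPM, was low in the miR-146a-/- library alone (1.70, 1.11 to 2.41), and Adgre1 likewise (1.17, 0.54 to 1.91). Hmox1 and Apoe differed less between the knockout libraries, with log2 ratios of 0.65 (0.05 to 1.34) and 0.51 (0.38 to 0.63). The largest higher ratios belonged to Jchain, Mzb1, Cxcl13, Alox15, Prg4, Gzmc and C4b, for each of which 1 DKO cell held all or nearly all UMIs.

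Ccl5 (ENSMUSG00000035042) is deleted in DKO mice, and its level serves to check the label. It stood at 92.6 CPM in young WT, 634 in treated WT, 777 in miR-146a-/- and 21.6 CPM in DKO macrophages, from 10, 546, 311 and 18 UMIs. The DKO library was lowest, with a log2 ratio over miR-146a-/- of -5.14 (-5.95 to -4.49). T cells of the same libraries held 6818, 20746, 23390 and 132 CPM, so their Ccl5 is also lowest in the DKO library. In the macrophages Ccl5 was uneven. In treated WT mice 4 cells held 215, 91, 84 and 56 UMIs of it and 3 of these held 82 to 96 UMIs of Gzma. The cell with 91 held 8 UMIs of Ncr1 and 13 of Nkg7, genes of NK cells. In miR-146a-/- mice 4 cells held 142, 78, 32 and 27. The first 2, with most of the 311 UMIs, also held 10 and 14 UMIs of Ncr1, 46 and 16 of Xcl1 and 40 and 25 of Nkg7. The cells with 32 and 27 held none of these 3 genes. Among cells with no T, NK or B transcripts, Ccl5 stood at 34.4, 89.9, 322 and 14.2 CPM. After thinning, 22.2% of treated WT, 37.0% of miR-146a-/- and 2.13% of DKO cells held a Ccl5 UMI, against 18.4%, 7.52% and 4.47% of B cells. None of 9 young cells did, where 3 cells would be 33.3% and the exact upper limit is 33.6%, against 14.5% of B cells. Without thinning the shares were 33.3%, 47.8%, 53.6% and 17.6%, against 26.2%, 35.6%, 17.2% and 11% of B cells, at median depths of 8365, 11502, 13459 and 14006 UMIs in macrophages and 5696, 6988, 7381 and 6880 UMIs in B cells. The treated WT and DKO shares after thinning were near or below the B-cell background, and the miR-146a-/- share was above it.

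**Figure D5:**
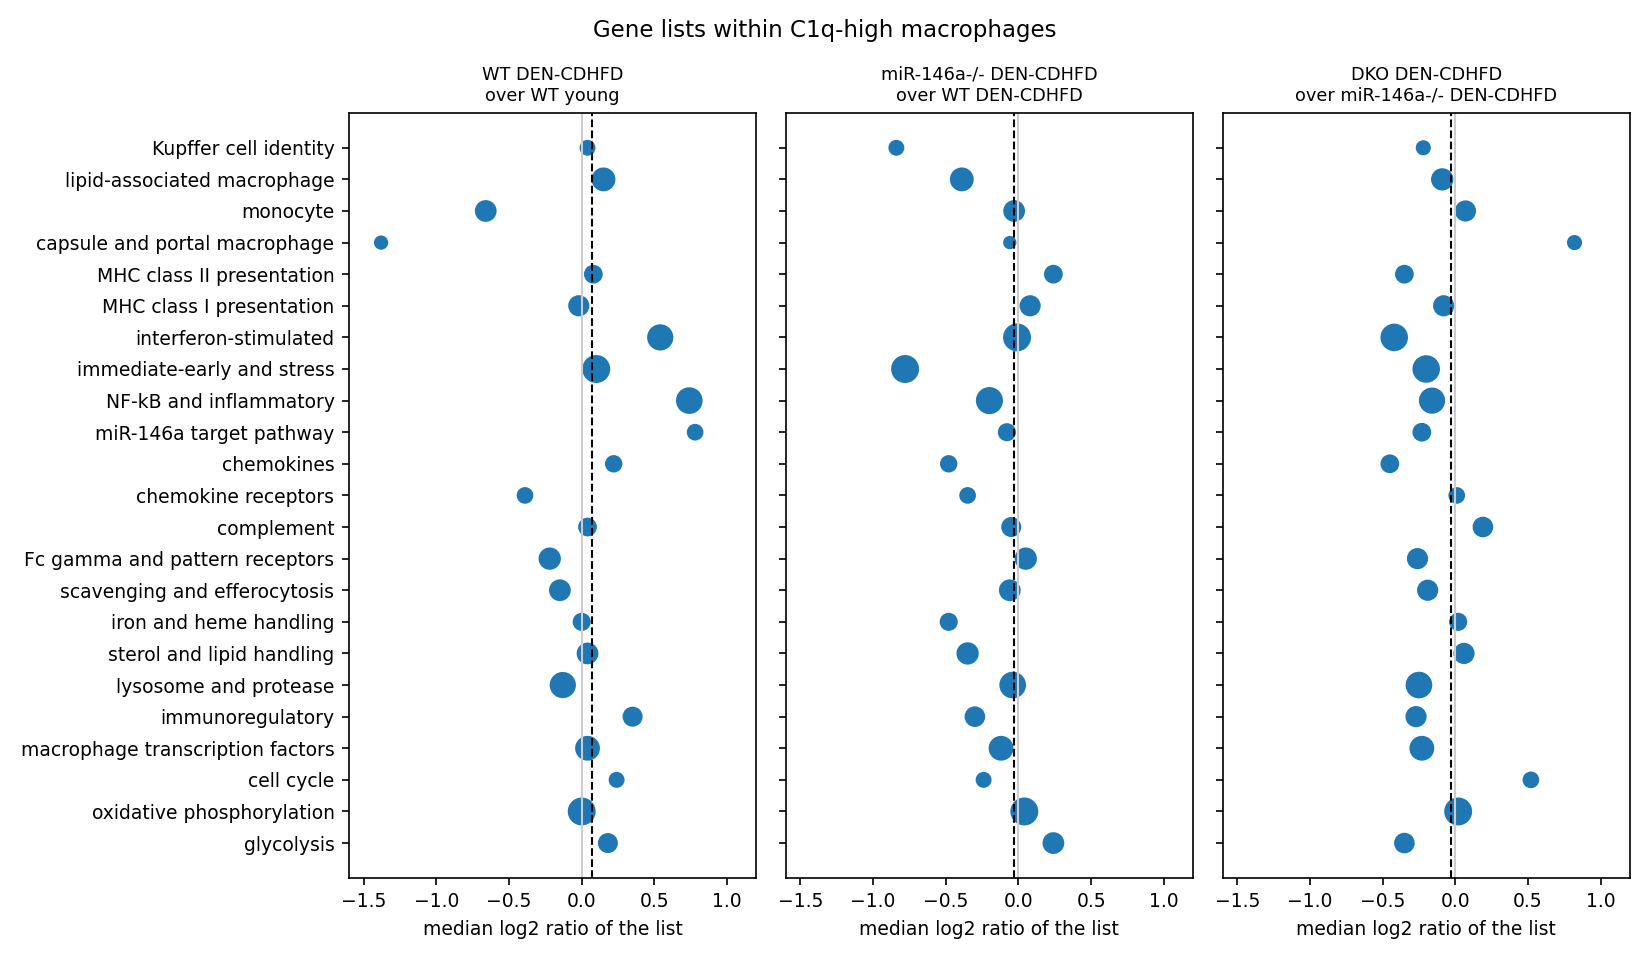
Median log2 ratio (horizontal axis) of each gene list (vertical axis) in the 3 comparisons, with the size of a dot showing how many members reached the minimum, a grey line at 0 and a dashed line at the median of all genes. Between miR-146a-/- and treated WT macrophages the immediate-early and stress list lies at -0.78 and class II at 0.24, and the oxidative phosphorylation list lies between 0.00 and 0.04 in the 3 comparisons.

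Oxidative phosphorylation and MHC class I genes differed little, and lysosomal genes differed by less than 2-fold. None of 28 genes of oxidative phosphorylation was past 2-fold in any of the 3 comparisons, with medians of 0.00, 0.04 and 0.02. None of the 24 to 25 lysosomal genes at the minimum was past 2-fold either, with medians of -0.13, -0.04 and -0.25. Psap, which activates lysosomal enzymes of lipid breakdown, stood at 6954 CPM in young WT, 5599 in treated WT, 6152 in miR-146a-/- and 4140 CPM in DKO macrophages. MHC class I had 1 of 14 members past 2-fold higher in treated over young WT, where 8.77% of all genes were, and none in the other comparisons. Scavenging and efferocytosis genes had medians of -0.15, -0.06 and -0.19. Fc gamma and pattern receptors had medians of -0.22, 0.05 and -0.26. Of their 16 members 4 were past 2-fold lower (25.0%) and 1 higher in miR-146a-/- over WT macrophages, against 4.39% and 1.96% of all genes. Macrophage transcription factors had medians of 0.04, -0.12 and -0.23, with 3 of 21 lower (14.3%, against 4.39% of all genes) in the same comparison. Cell cycle genes had 3 of 7 members past 2-fold higher (42.9%) in DKO over miR-146a-/- macrophages, against 2.48% of all genes. The list's median was 0.52, and its sign turned under 3 of the other settings. Mki67, a marker of dividing cells, had 0, 24, 0 and 60 UMIs, of which 20 came from 1 treated WT cell and 33 and 21 from 2 DKO cells. The DKO cell with 21 also held 136 UMIs of Gzma and 50 of Nkg7, genes of NK cells, and 41 of the 61 DKO UMIs of Stmn1, a tubulin regulator of dividing cells. Mki67 and Stmn1 reached the minimum through the DKO library alone, with 0 and 1 UMIs in miR-146a-/- cells.

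Il6 had 1 UMI in the 158 cells, in a DKO cell, and Cd8a had 9, in 1 DKO cell. Gzmk had 2 UMIs in treated WT cells, and Pdcd1 had 2 UMIs in miR-146a-/- and 9 in DKO cells, so none of these genes gave a ratio. Cx3cr1, the fractalkine receptor, stood at 241, 109, 155 and 104 CPM. Transcripts of cells that the CD45 sort removes were low. The hepatocyte list of 20 genes summed to 463, 260, 165 and 146 CPM, led by Trf, which macrophages can also express. The endothelial list summed to 509, 350, 457 and 428 CPM, led by the Fc receptor Fcgr2b, which macrophages express. The stellate and fibroblast list summed to 18.5, 58.0, 92.5 and 147 CPM and the erythroid and platelet list to 9.26, 45.3, 20 and 52.7 CPM. Neutrophil genes summed to 92.6, 54.5, 110 and 472 CPM, with 87.6% of the DKO sum in 1 cell, and dendritic cell genes to 463, 658, 677 and 509 CPM, led by Bst2, which is also an interferon-stimulated gene. The part of these transcripts in the ratios above was not tested.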

How the data were processed

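The authors sorted CD45+ liver cells, made 10x Genomics libraries and deposited UMI counts, not normalized, over 32285 gene rows, as made by Cell Ranger 7.0.1 (matrix headers) on mm10. The paper names an earlier version, and whether reads in introns were counted is not stated. The 4 matrices held 39121 cells, and 36286 passed the limits on features and mitochondrial UMIs. UMIs were summed over the C1q-high macrophages of each library, and genes compared as CPM with a prior of 0.5 counts. Intervals are exact Poisson (sums), Clopper-Pearson (shares) and Newcombe (differences). The members and the 32 gene lists were chosen with earlier results of these data known. The genes named were those of the selection rule, those the study names, the 10 most abundant, the 10 with the largest ratio in each direction per comparison without mitochondrial, ribosomal, antigen receptor and Gm or Rik genes, per list the 3 most abundant and the 3 with the largest ratio, and the 10 largest per direction against monocytes. Other T, NK or B transcripts, thresholds, scalings (edgeR 4.0.16 TMM in R 4.3.3), priors and minimums were varied. Work used python 3.11.15, numpy 2.4.6, scipy 1.17.1, pandas 2.3.3 and matplotlib 3.10.9.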

Additional observations from a re-analysis of the deposited data

How the results depend on the processing

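Of 36 share differences under other settings 29 kept their size, of 108 counts of genes 76, and of 1242 list medians 1192, with 38 moved and 12 turned in sign. Size was kept within the interval of a share, within 1.5-fold for a count and within the median counting half-width of its members for a list, and a turn in sign was counted only for medians of at least 0.5 in size. The settings without the deepest cell of each library, with the minimum on the mean of the 2 libraries and with at least 2% class II UMIs were chosen after seeing the data. Unless said, the cause was not tested. For the share of C1q-high macrophages, treated WT over young WT, percentage points were 2.54 without the Cd3 condition (496 cells), 0.371 with no T, NK or B transcripts (102 cells) and 2.01 of cells with Csf1r. For the share of C1q-high macrophages, miR-146a-/- over treated WT, percentage points were -2.26, -0.213 and -2.39 in that order, and DKO over miR-146a-/- gave 0.697 without the Negr1 condition. The genes past 2-fold higher, treated WT over young WT, were 49 without the Cd3 condition, 415 with the mean over cells, 23 with a prior of 5 counts, 679 at 10 CPM, 1372 at 1 UMI (which adds genes at few counts) and 137 with the minimum on the mean. The genes past 2-fold lower, treated WT over young WT, were 106 with no T, NK or B transcripts, 143 with the mean over cells, 214 with a prior of 5, 284 at 10 CPM, 3412 at 1 UMI, 176 with the minimum on the mean and 127 with at least 2% class II UMIs. The genes past 2-fold higher, miR-146a-/- over treated WT, were 29 without the Cd3 condition, 1921 at 1 UMI and 41 with the minimum on the mean. The genes past 2-fold lower, miR-146a-/- over treated WT, were 85 without the Cd3 condition and 85 with a prior of 5, 344 at 10 CPM, 1670 at 1 UMI and 98 with the minimum on the mean. The genes past 2-fold higher, DKO over miR-146a-/-, were 46 without the Cd3 condition, 153 with no T, NK or B transcripts, 51 with a prior of 5, 262 at 10 CPM, 1640 at 1 UMI and 40 with the minimum on the mean. The genes past 2-fold lower, DKO over miR-146a-/-, were 45 without the Negr1 and 25 without the Cd3 condition, 152 with the mean over cells, 1966 at 1 UMI and 42 with the minimum on the mean. Medians that turned in treated over young WT were monocyte genes at 0.20 without the Cd3 condition and 0.26 with at least 2% class II UMIs, capsule and portal macrophage genes at 0.45 in the latter, interferon genes at -0.12 without the Cd3 condition and -0.08 with a prior of 5 (which put the median of all genes at -0.34), and miR-146a targets at -0.03 without the Cd3 condition. Under the main rule the treated over young WT medians were -1.38 for 4 capsule and portal genes and 0.78 for 7 miR-146a targets. In DKO over miR-146a-/-, capsule and portal genes were at 0.82 under the main rule. They were at -0.04 with at least 5 C1q UMIs, -0.39 without the Negr1 condition and -0.38 with the minimum on the mean. Class II genes of the same comparison, at -0.35 in the text, were at -0.06 without the Cd3 condition and with C1q of at least 0.1% of UMIs. Cell cycle genes were at -0.09 with at least 2 Csf1r UMIs, -0.01 with no upper limit on features and -0.12 without the Negr1 condition. With 1 UMI after thinning, 0 young cells passed the Kupffer limit. Cells with an Adgre1 UMI were 8.33% in young WT and 0% in miR-146a-/- at 1500 UMIs, and unthinned 55.2% in treated WT, 50% in miR-146a-/- and 58.8% in DKO. Unthinned Trem2 shares were 50.7% in treated WT and 43.1% in DKO. The young library of 12 cells limits the first comparison, and with 1 library per group mice, sort and library cannot be told apart.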
